A study of Mus musculus with 32 samples.

Results

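Mouse ERVL-MaLR repeats were followed through growing oocytes, mature oocytes, early embryos and embryonic stem cells. Members were the repeat subfamilies whose table entry carries the family ERVL-MaLR and the class LTR, 108 of the 1153 repeat subfamilies counted and of the 680 of class LTR. By the start of their names, 20 were MT subfamilies (2 MTA, 4 MTB, 2 MTC, 2 MTD, 9 MTE and MT-int), 29 were ORR1 subfamilies (10 ORR1A, 4 ORR1B, 4 ORR1C, 5 ORR1D, 2 ORR1E, 2 ORR1F and 2 ORR1G) and 59 were MLT1 subfamilies, MLT-int among them. Of the 108, 56 were internal regions, whose names end in -int, and 52 were long terminal repeats (LTRs).

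ERVL-MaLR elements are non-autonomous LTR retrotransposons: they carry LTRs around an internal sequence and no working genes of their own, and they depend on proteins of related elements to copy themselves. MLT1 copies are the oldest, ORR1 and MT copies are younger and specific to rodents, and MTA is the youngest of the MT subfamilies. Their LTRs hold promoters and splice donors, and in mouse oocytes many MT and ORR1 LTRs serve as first exons of host genes. The best known case is Dicer1, the nuclease of the small RNA pathways, whose oocyte form starts in an MTC element.

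The 32 libraries form 16 groups of 2 replicates. Growing oocytes came from postnatal day 14 (P14) females transgenic for the histone H3.3, as H3.3WT or as H3.3K4M, in which lysine 4 is replaced by methionine. Both P14 groups are thus transgenic, and the labels do not give the promoter that drives the transgene. All other groups are labelled WT: metaphase II (MII) oocytes from females of 8 weeks or 12 months, 2-cell embryos from 12-month females without treatment, and 2-cell and 4-cell embryos from females of 6 to 8 weeks. The latter embryos were cultured in KSOM with the vehicle DMSO, aphidicolin (an inhibitor of DNA replication), cycloheximide (an inhibitor of translation) or MG132 (an inhibitor of the proteasome). Embryonic stem cells (ESCs) of the AB2.2 line were given DMSO, cycloheximide or MG132. The labels give neither doses nor times, nor how many oocytes or embryos went into a library. Oocytes and embryos were prepared with Smart-Seq2, a full-length method for few cells, and ESCs with poly(A) capture and a TruSeq kit, so kit and cell type cannot be told apart.

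Libraries held 14313718 to 34713159 counts, and 2C_APH replicate 1 and 2C_MG132 replicate 1 were the shallowest. Summed oocyte markers (8 genes) ranged from 34271 to 36369.5 CPM (counts scaled to the library total) in P14 oocytes, from 4279 to 6800 in MII oocytes and from 52.8 to 267 in 4-cell embryos, and all 8 were detected in each of these libraries. Summed ESC markers (7 genes) reached 4062 to 4705 CPM in ESCs. Granulosa and cumulus markers (12 genes) summed to 3.27 to 8.88 CPM at P14, 77.9 to 128 at MII, 11.2 to 59.2 at 2 cells and 29.1 to 353 at 4 cells. The labels do not say whether replicates came from separate collections, so the p-values measure the spread between these libraries, which may be technical. In such bulk libraries, fewer cells with a transcript and less RNA per cell cannot be told apart.

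ERVL-MaLR counts made up a large part of each growing oocyte library and a small part of each mature oocyte library. In the H3.3WT oocytes at P14 they took 26.2% and 28.8% of all counts, and with H3.3K4M 29.5% and 28.8%. In MII oocytes the share was 1.45% and 1.36% at 8 weeks and 1.68% and 1.44% at 12 months. Every P14 library thus stood far above every MII library, and the pairs within each stage overlapped or nearly met. At 2 cells the share was 8.53% and 9.53% with DMSO and 12.4% and 12.02% in the embryos of 12-month females. At 4 cells with DMSO it was 2.15% and 2.42%, so the share was high at P14, low at MII, high again at 2 cells and low at 4 cells. In the 6 ESC libraries it lay between 0.281% and 0.396%, below each oocyte and embryo library.

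The share also differed among the drug-treated embryos. With aphidicolin the share at 2 cells was 13.5% and 10.02%, above both vehicle libraries. With cycloheximide it was 3.58% and 2.75%, below both vehicle libraries but still above the MII oocytes. With MG132 it was 5.77% and 9.68%, a pair that spans the vehicle libraries. At 4 cells the share was 2.27% and 4.05% with aphidicolin, 2.21% and 2.28% with cycloheximide and 3.71% and 3.48% with MG132. The MG132 pair lay above the vehicle pair there, the cycloheximide pair lay within it, and the aphidicolin pair overlapped it. Each group has only 2 libraries, and these shares were not tested.

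**Figure D1:**
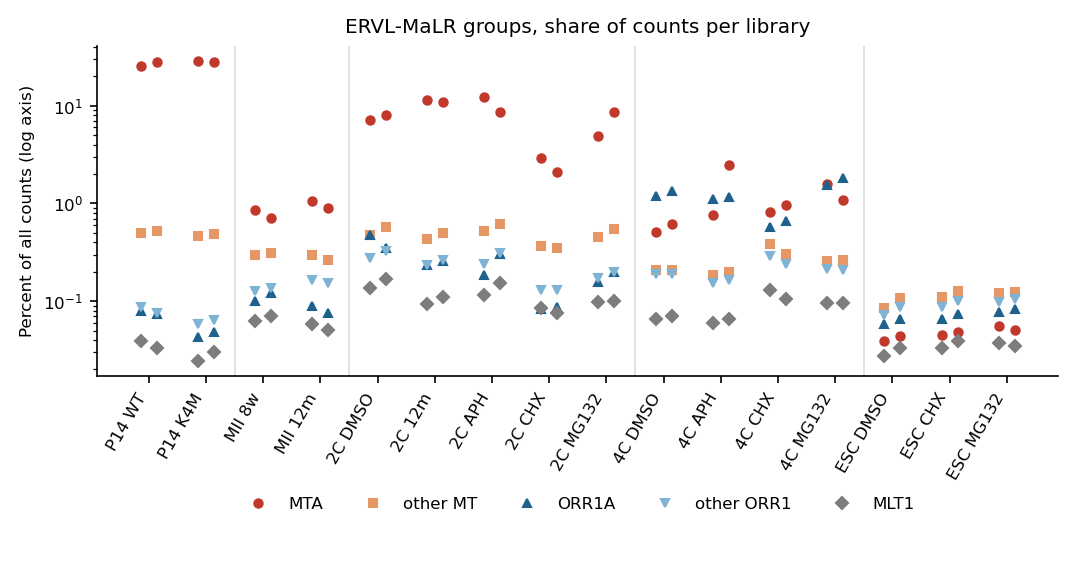
Percent of all counts (log axis) on MTA, other MT, ORR1A, other ORR1 and MLT1 subfamilies, with 1 point per library and kind, for the 2 libraries of each of the 16 groups. MTA lies highest in every P14, MII and 2-cell library, and ORR1A lies above MTA in both 4-cell vehicle libraries.

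MTA carried most of this signal at P14, at MII and at 2 cells. MTA, as LTR (MTA_Mm) and internal region (MTA_Mm-int), took 97.3% to 98.003% of ERVL-MaLR counts at P14, 52.8% to 63.8% at MII, 76.6% to 92.1% at 2 cells, 23.7% to 60.6% at 4 cells and 12.4% to 14.2% in ESCs. ERVL-MaLR subfamilies held 87.2% to 90.1% of all repeat counts at P14, against 9.61% to 10.6% in ESCs. The second group to stand out was ORR1A. It took 1.18% and 1.34% of all counts in 4-cell vehicle embryos and 0.476% and 0.346% in 2-cell vehicle embryos, but 0.0786% and 0.0740% in P14 oocytes with H3.3WT. In vehicle embryos the share of ORR1A was thus higher at 4 than at 2 cells, while that of MTA was lower.

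The internal region and the LTR of MTA did not move in step. For every count on MTA_Mm, MTA_Mm-int had 2.91 to 3.801 counts at P14, 1.17 to 1.43 at MII and 0.988 to 1.26 in ESCs. In 2-cell vehicle embryos the ratio was 3.98 and 3.90, above each P14 library, and with cycloheximide it was 1.86 and 2.05. The ratio of these entries depends on their lengths, so only its differences between libraries can be read. Over all 2-cell libraries, drug-treated ones included, the ratio was 1.86 to 3.98, and over all 4-cell libraries 1.52 to 4.16. MTA was therefore richer in internal sequence in each P14, 2-cell and 4-cell library than in each MII library.

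Of the 108 members, 76 reached 10 CPM in at least 1 group. Among these, 38 had their highest group mean in a 2-cell group, 29 in a 4-cell group, 7 at P14 and 2 at MII. A member entered through its highest group, and there were more 2-cell and 4-cell groups than P14 or MII groups. These counts were not tested and are not set beside those of all repeats. All 10 ORR1A members peaked in a 4-cell group. Of the 19 MT members, 9 peaked at 2 cells, 5 at P14, 4 at 4 cells and 1 at MII. The 5 with their peak at P14 were MTA_Mm, MTA_Mm-int, MT-int, MTB and MTB-int. MTA_Mm-int had the widest span, from a mean of 223286 CPM in P14 oocytes with H3.3K4M to 221 CPM in vehicle ESCs. MTC and MTD spanned far less, 4.57 and 4.52 times between their highest and lowest group means.

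**Figure D2:**
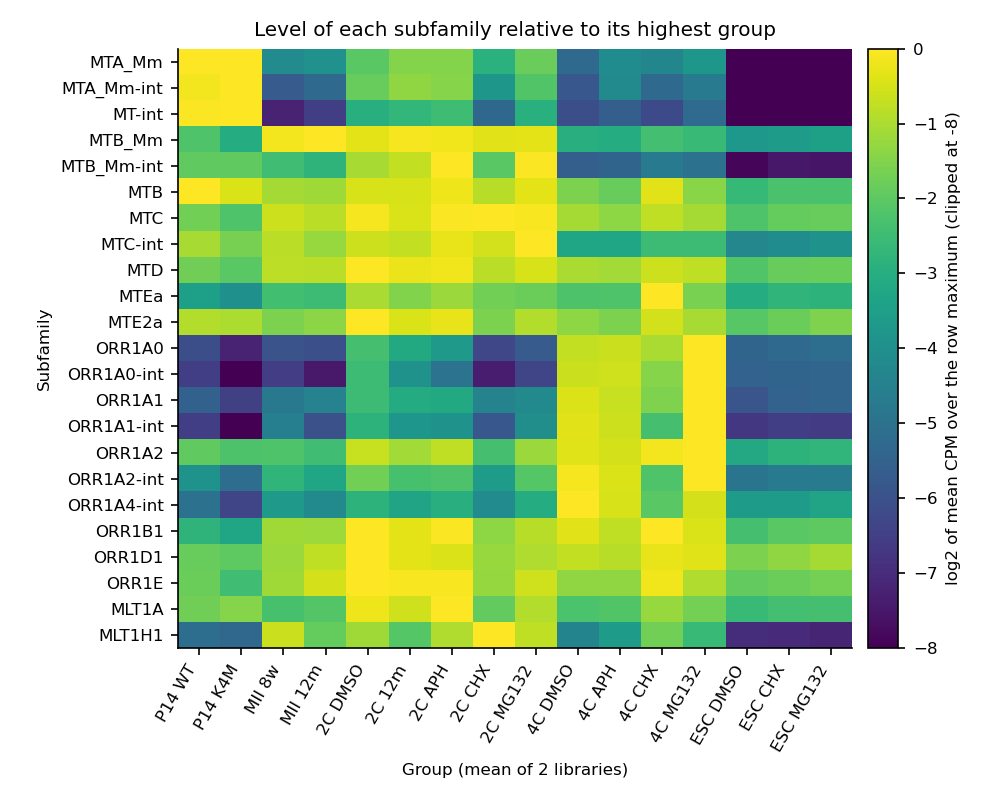
Mean CPM of 23 ERVL-MaLR subfamilies in each of the 16 groups (columns), shown as colour for the log2 ratio to the highest group of that subfamily, with ratios under -8 drawn as -8. The MTA and MT-int entries are highest in the 2 P14 columns, and each ORR1A entry shown has its maximum in a 4-cell column, that of MG132 for all but ORR1A4-int.

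The next comparisons set stages beside each other. Levels below are normalised CPM, that is CPM after TMM scaling within the libraries fitted together, so a library has somewhat different values in different comparisons. Log2 differences are given with their standard error, and a subfamily was called higher or lower where the edgeR quasi-likelihood test gave an adjusted p under 0.05. P-values were adjusted over all genes and repeats tested. Counts called by DESeq2, a second test, are given for members alone, without the share over all repeats. The vehicle 2-cell libraries serve in several of these comparisons, as do the 8-week MII libraries, so the comparisons are not independent. Each repeat entry sums the reads of all copies in the genome, so the copies, and the genes around them, that gave rise to a value are unknown. Some subfamilies were named because they were called with a large change and no overlap between libraries. For these, that their libraries lie apart is no further support.

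From P14 oocytes with H3.3WT to MII oocytes of 8 weeks, MTA and MT-int fell steeply, while 30 other members rose. MTA_Mm-int stood at 193027 and 246870.0 normalised CPM at P14 and at 4096 and 3784 at MII. MTA_Mm stood at 66429 and 70653 at P14 and at 3442 and 3243 at MII. MT-int, the internal region listed without a subfamily letter, stood at 2627 and 3242 at P14 and at 19.2 and 16.1 at MII. In all 3, both P14 libraries lay far above both MII libraries. The log2 changes were -5.803 ± 0.28, edgeR adjusted p = 7.0e-06 for MTA_Mm-int, a 55.8-fold fall. MTA_Mm changed by -4.36 ± 0.23, edgeR adjusted p = 7.4e-06, and MT-int by -7.38 ± 0.29, edgeR adjusted p = 7.0e-06.

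The MTB subfamilies were divided. MTB fell by a log2 change of -1.29 ± 0.22, edgeR adjusted p = 0.0011, and MTB-int and MTB_Mm-int also fell. MTB_Mm rose, from 99.1 and 111 normalised CPM to 266 and 492 (1.85 ± 0.30, edgeR adjusted p = 9.7e-04). MTC, the source of the oocyte promoter of Dicer1, rose from 268 and 278 to 491 and 509.7 (0.87 ± 0.19, edgeR adjusted p = 0.0040). MTD-int was at 13.7 and 12.6 at P14 and at 97.3 and 80.3 at MII, with both MII libraries higher (2.75 ± 0.25, edgeR adjusted p = 4.0e-05). ORR1A3-int rose from 16.01 and 18.01 to 90.7 and 113 (2.58 ± 0.23, edgeR adjusted p = 4.1e-05). The largest rise among members with at least 10 CPM was in MLT1H1, an old LTR, from 8.45 and 9.11 to 155 and 183 (4.27 ± 0.27, edgeR adjusted p = 1.1e-05).

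Of the 91 members tested, 30 were higher and 16 lower at MII, or 33.0% and 17.6%. Over all 873 repeat subfamilies tested, 38% were higher and 11.7% lower, so the share of members that fell lay above that of repeats in general. The median log2 change was 0.37 over members, 0.66 over repeats and -0.18 over all entries tested, genes included. Both MTA members and 3 of 4 MTB members fell, both MTD members and 3 of 4 ORR1B members rose, and of 10 ORR1A members 4 rose and 1 fell. Age, transgene and stage change together here. Without P14 H3.3WT replicate 1 the number called was 24 and without replicate 2 it was 23, against 46 with both. DESeq2 size factors moved the median over all entries to -0.05, with 36 members higher and 14 lower, and library sizes from genes alone to -0.07, with 36 and 16. Of the repeats, 367 were higher and 94 lower with the former, 362 and 95 with the latter and 332 and 102 in the main fit. MTC lost its call without P14 H3.3WT replicate 1, and MTA_Mm, MTA_Mm-int, MT-int, MLT1H1 and MTD-int kept their calls whichever library was left out. Of 9 transcription factors of the oocyte tested, 1 was higher and 5 lower at MII, where 27.3% of all genes tested were higher and 34.3% lower. Tbpl2, the TBP relative that drives oocyte transcription, rose (16.5 and 22.2 to 44.7 and 48.95, 1.27 ± 0.26, edgeR adjusted p = 0.0028), whereas Nobox, a regulator of oocyte growth, fell (521 and 584 to 18.05 and 19.9, -4.87 ± 0.30, edgeR adjusted p = 1.1e-05). Dicer1 rose as MTC did, from 188 and 168 to 533 and 329 (1.28 ± 0.26, edgeR adjusted p = 0.0029). Of 24 retroelement silencing genes tested, 8 were higher and 9 lower, near the same background. Of 8 granulosa and cumulus markers tested, 2 were higher and 2 lower, with sums over all 12 of 8.88 and 7.51 CPM at P14 and 105 and 77.9 at MII. Cyp19a1 and Gja1 were the 2 higher, and Fshr and Inha the 2 lower. Cyp19a1 was at 4.44 and 3.94 normalised CPM at P14 and 49.02 and 73.5 at MII. Gja1 was at 0.450 and 0.656 at P14, and at 28.7 in MII replicate 1 but 0.104 in replicate 2. Tnfaip6, not called, was at 6.56 and 0 in these MII libraries, so the 8-week MII replicates differed in such markers. The part of these markers in the result was not tested.

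After fertilisation, MTA and ORR1A0 rose. In 8-week MII oocytes MTA_Mm-int was at 5616 and 5278 normalised CPM, and in 2-cell embryos with DMSO at 40988 and 48327. MTA_Mm was at 4719 and 4524 and then at 10302 and 12400.0. Both embryo libraries exceeded both oocyte libraries, more so for the internal region. The log2 changes were 3.04 ± 0.24, edgeR adjusted p = 6.0e-05 for MTA_Mm-int and 1.296 ± 0.22, edgeR adjusted p = 0.0031 for MTA_Mm. MT-int rose by 3.39 ± 0.30, edgeR adjusted p = 9.3e-05, from 26.3 and 22.5 to 199 and 314. ORR1A0-int was at 59.7 and 79.9 in MII oocytes and at 973 and 296 at 2 cells, where the replicates differed by more than 3 times. It rose by 3.18 ± 0.49, edgeR adjusted p = 0.0017, and its LTR ORR1A0 by 2.77 ± 0.30, edgeR adjusted p = 2.7e-04, from 35.7 and 47.7 to 342 and 225.

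MTB, MTC and MTD did not pass the test, and MTB (-0.20 ± 0.25, edgeR adjusted p = 0.60) and MTD turned positive, at 0.083 and 0.27, with library sizes from genes alone. MTC was at 673 and 711 in MII oocytes and at 499 and 626 at 2 cells (-0.30 ± 0.22, edgeR adjusted p = 0.36). MTD was at 947 and 1028 and then at 887 and 1059 (-0.02 ± 0.21, edgeR adjusted p = 0.97), so its pairs overlapped. MLT1H1 fell, from 213 and 256 to 95.3 and 96.04 (-1.29 ± 0.26, edgeR adjusted p = 0.0066), a call that was lost without either 2-cell library. MTB_Mm was lower at the threshold, with 227 and 297 against 364 and 687 (-1.003 ± 0.31, edgeR adjusted p = 0.048), and that call was lost without either 2-cell library or MII replicate 2.

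Of the 99 members tested, 20 were higher and 2 lower at 2 cells, or 20.2% and 2.02%, against 24.5% and 2.58% of all 1006 repeats tested. The members as a whole thus changed about as often as other repeats. Both MTA members, MT-int and 4 of 10 ORR1A members were among those higher. The median log2 change was 0.65 over members, 0.95 over repeats and 0.37 over all entries. With library sizes from genes alone, the median over all entries was 0.66 in place of 0.37 and 35 members were higher and 1 lower. The repeats moved likewise, with 346 higher and 9 lower, against 246 and 26 in the main fit. Without 2-cell or MII libraries in turn, 15 to 21 members were called. Dicer1 fell, from 731 and 459 to 234 and 172 (-1.55 ± 0.29, edgeR adjusted p = 0.0049), as did Tbpl2, from 61.3 and 68.3 to 21.4 and 25.5 (-1.47 ± 0.30, edgeR adjusted p = 0.0092). The call of Dicer1 was lost without 2-cell replicate 2 and that of Tbpl2 without 2-cell replicate 1. Of 24 silencing genes, 5 were higher and 7 lower at 2 cells, where 10.2% of all genes tested were higher and 10.2% lower. Trim28, a corepressor of many retroelements, was among those lower (97.9 and 65.6 to 21.8 and 7.901, -2.46 ± 0.48, edgeR adjusted p = 0.0059). All 6 markers of the 2-cell embryo that were found were higher, with sums of 738 and 992 CPM at 2 cells against 0.906 and 1.84 CPM at MII, and summed granulosa and cumulus markers were 59.2 and 40.5 against 105 and 77.9, with Cyp19a1 the only one called, as lower. The part of either in the result was not tested.

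The same step in the material of 12-month females used other libraries. MTA_Mm-int was at 7316 and 6452 in MII oocytes and at 89058 and 74378 at 2 cells, and MTA_Mm at 5249 and 4516 and then at 22542 and 19875. Each embryo library lay above each oocyte library. MTA_Mm-int rose by 3.57 ± 0.25, edgeR adjusted p = 5.0e-05, and MTA_Mm by 2.12 ± 0.23, edgeR adjusted p = 3.5e-04. MT-int rose by 3.42 ± 0.30, edgeR adjusted p = 1.3e-04, ORR1A0-int by 3.21 ± 0.49, edgeR adjusted p = 0.0023 and MTB_Mm-int by 1.66 ± 0.27, edgeR adjusted p = 0.0030. MTC was at 577 and 529 and then at 553 and 548 (-0.01 ± 0.22, edgeR adjusted p = 1). Of 99 members tested, 20 were higher and 0 lower, against 19.2% and 0.994% of 1006 repeats tested. By DESeq2, 32 were higher and 0 lower. Library sizes from genes alone moved the median over all entries from 0.23 to 0.43 and gave 28 members higher and 0 lower. Of the repeats, 249 were then higher and 5 lower, against 193 and 10 in the main fit. The number of members called was 10 and 8 without 2-cell replicate 1 or 2, and 9 and 7 without MII replicate 1 or 2. The 7 called in every such fit were MTA_Mm-int, MTA_Mm, MT-int, ORR1A0-int, ORR1A0, MTB_Mm-int and ORR1A1-int.

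Between 2 and 4 cells in vehicle embryos, MTA and MTB fell and ORR1A rose. MTA_Mm-int went from 40988 and 48327 normalised CPM to 3514 and 4156 (-3.54 ± 0.25, edgeR adjusted p = 3.6e-06), an 11.6-fold fall. MTA_Mm went from 10302 and 12400.0 to 1527 and 1701 (-2.81 ± 0.23, edgeR adjusted p = 9.5e-06). MTB_Mm-int fell most among the members with at least 10 CPM, from 177 and 259 to 12.8 and 12.1 (-4.13 ± 0.30, edgeR adjusted p = 4.5e-06). All 4 MTB members were lower, with MTB itself not called under DESeq2 size factors (edgeR adjusted p = 0.15), and both MTA members and 4 of 9 MTE members. MLT1H1 was at 95.3 and 96.04 at 2 cells and 12.9 and 13.3 at 4 cells (-2.87 ± 0.27, edgeR adjusted p = 2.1e-05).

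ORR1A1-int was at 473 and 296 at 2 cells and 2588 and 3018 at 4 cells, and its LTR ORR1A1 at 224 and 218 and then at 1151 and 1328. ORR1A4-int was at 60.5 and 51.1 and then at 542 and 517. ORR1A0-int was at 973 and 296 and then at 2856 and 3411. For each of these, both 4-cell libraries exceeded both 2-cell libraries. The log2 changes were 2.87 ± 0.31, edgeR adjusted p = 4.8e-05 for ORR1A1-int, 3.24 ± 0.27, edgeR adjusted p = 9.2e-06 for ORR1A4-int and 2.304 ± 0.47, edgeR adjusted p = 0.0026 for ORR1A0-int. Of the 10 ORR1A members, 8 were higher and none lower, with a median log2 change of 2.04. The number higher was 9 with DESeq2 size factors and 7 with library sizes from genes alone. ORR1A2, an LTR, rose only by 0.71 ± 0.24, edgeR adjusted p = 0.033, and that call was lost without any 1 of the 4 libraries.

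Of the 99 members tested, 12 were higher and 34 lower at 4 cells, or 12.1% and 34.3%, against 8.35% and 23.8% of the 1006 repeats tested. The median over members was -0.64, over repeats -0.56 and over all entries -0.57, so the members as a whole sat near the general shift while MTA, MTB and ORR1A lay far from it. DESeq2 size factors moved the median over all entries to -0.36, with 14 members higher and 25 lower, and library sizes from genes alone to -0.72, with 11 higher and 36 lower. Of the repeats, 97 were higher and 178 lower with the former, 77 and 282 with the latter and 84 and 239 in the main fit. Both MTA members fell and ORR1A1-int rose under all 3 scalings. Of the 46 called, 29 were called whichever library was left out. Tbpl2 was at 21.4 and 25.5 at 2 cells and at 0 counts in both 4-cell libraries. Dicer1 fell from 234 and 172 to 69.7 and 59.97 (-1.65 ± 0.29, edgeR adjusted p = 0.0011), and Trim28 rose from 21.8 and 7.901 to 133 and 119 (3.08 ± 0.49, edgeR adjusted p = 5.5e-04). Of 24 silencing genes, 5 were higher and 5 lower, against 19.5% and 29.3% of all genes tested. Mitochondrial transcripts made up 3.31% and 2.52% of counts in the 2-cell and 12.1% and 9.07% in the 4-cell vehicle libraries. Of the 6 markers of the 2-cell embryo, 5 were lower at 4 cells, with sums of 49.4 and 25.4 CPM against 738 and 992. Of 11 granulosa and cumulus markers tested, 2 were higher and 2 lower, with sums of 353 and 351 against 59.2 and 40.5. Gja1, a gap junction gene, made up most of the 4-cell sum, at 335 and 310.5 normalised CPM against 29.8 and 20.8, and its call was lost in each fit without 1 library. Cyp19a1 and Fshr were the 2 lower. The part of these in the result was not tested.

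**Figure D3:**
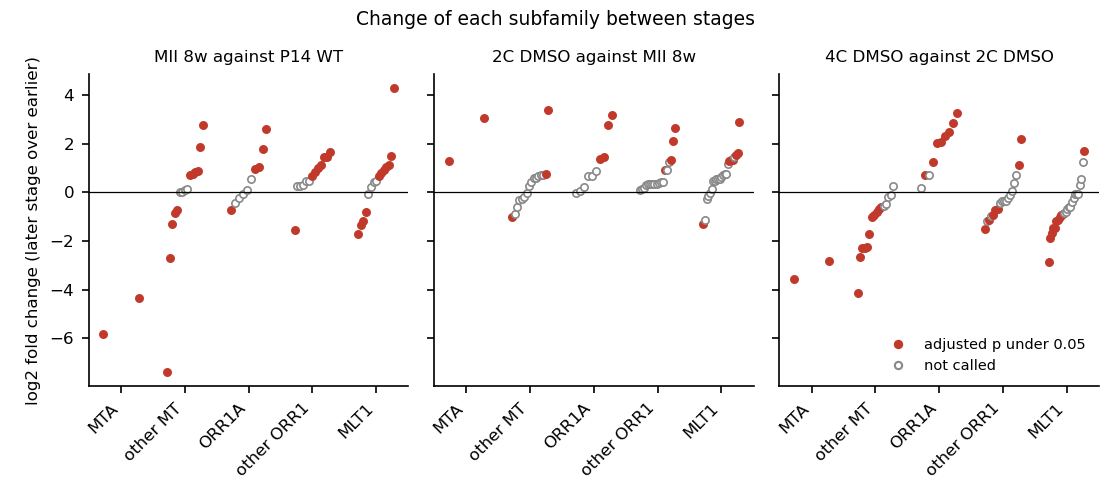
Log2 change of each ERVL-MaLR subfamily whose higher group reached 10 CPM, by name group, in the stage comparisons, with subfamilies called by edgeR in red. Both MTA points lie far below 0 from P14 to MII and from 2 to 4 cells and above 0 from MII to 2 cells, and most ORR1A points lie above 0 from 2 to 4 cells.

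In growing oocytes, H3.3K4M was compared with H3.3WT. Lysine 4 methylation of histone H3 marks promoters, and the mutant histone is known to interfere with it. MTA did not pass the test, while ORR1A internal regions were lower with H3.3K4M. MTA_Mm-int was at 254519 and 206892 normalised CPM with H3.3K4M and 177863 and 221306 with H3.3WT. MTA_Mm was at 66952 and 61732 against 61210.4 and 63336. The pairs overlapped for both (0.21 ± 0.25, edgeR adjusted p = 0.61 and 0.05 ± 0.22, edgeR adjusted p = 0.91). MT-int was likewise not called (0.11 ± 0.20, edgeR adjusted p = 0.74).

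ORR1A0-int was at 15.9 and 12.2 with H3.3K4M and 50.4 and 57.8 with H3.3WT. ORR1A1-int was at 11.6 and 11.9 against 38.8 and 40.7. ORR1A2-int was at 51.8 and 57.3 against 119.6 and 118. In all 3, both H3.3K4M libraries lay far below both H3.3WT libraries and the replicates of each group lay close together. The log2 differences were -1.95 ± 0.19, edgeR adjusted p = 1.7e-05 for ORR1A0-int, a 3.86-fold lower level. They were -1.76 ± 0.17, edgeR adjusted p = 1.7e-05 for ORR1A1-int and -1.12 ± 0.16, edgeR adjusted p = 3.3e-04 for ORR1A2-int. The LTRs differed less: ORR1A0 by -1.07 ± 0.18, edgeR adjusted p = 0.0011 and ORR1A1 by -0.91 ± 0.16, edgeR adjusted p = 0.0016, while ORR1A2 was not called (-0.23 ± 0.16, edgeR adjusted p = 0.35). For every count on ORR1A0, ORR1A0-int had 1.06 and 0.989 counts with H3.3K4M and 1.85 and 1.92 with H3.3WT. For ORR1A1 the ratio was 0.594 and 0.607 against 1.06 and 1.10. For both, the ratio was lower in each H3.3K4M library than in each H3.3WT library. For MTB_Mm it went the other way, at 3.004 and 2.81 with H3.3K4M against 1.52 and 1.72 with H3.3WT. For MTA_Mm and MTC the pairs overlapped.

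Among the MT members, MTE2b-int and MTE2b were lower. MTE2b-int was at 6.81 and 5.97 with H3.3K4M and 20.4 and 16.3 with H3.3WT (-1.52 ± 0.20, edgeR adjusted p = 2.2e-04). MTE2b was at 34.1 and 34.3 against 65.7 and 65.6 (-0.94 ± 0.16, edgeR adjusted p = 9.9e-04), with replicates close together in both groups. MTB_Mm was also lower, at 56.1 and 55.2 against 91.3 and 99.8 (-0.78 ± 0.16, edgeR adjusted p = 0.0036). MTC was at 185 and 186 against 247 and 249, in the same direction but short of the threshold (-0.42 ± 0.16, edgeR adjusted p = 0.081). MTB (-0.39 ± 0.16, edgeR adjusted p = 0.11) and MTD (-0.21 ± 0.17, edgeR adjusted p = 0.40) were not called.

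Of 87 members tested, 30 were lower and 0 higher, or 34.5% lower, against 27.1% lower and 2.65% higher of the 791 repeats tested. DESeq2 called 28 lower and 0 higher. The median log2 difference was -0.46 over members and -0.45 over all repeats, against -0.02 over all entries, so the members as a whole did not stand apart from other repeats. By name, 8 of 10 ORR1A members were lower with a median of -1.09, 2 of 4 ORR1B, both ORR1G, 3 of 9 MTE, 1 of 4 MTB and 8 of 38 MLT1 members tested. Of the 30, 14 were called whichever library was left out, and without H3.3WT replicate 1 the number called was 17. Of 9 oocyte transcription factors, Sohlh1, a regulator of early oocyte growth, was higher (8.98 and 9.500 against 1.35 and 2.16, 2.41 ± 0.26, edgeR adjusted p = 4.0e-05). Lhx8 was also higher (0.64 ± 0.17, edgeR adjusted p = 0.018), except without H3.3K4M or H3.3WT replicate 1, and Gtf2a1l, the TFIIA subunit that partners TBPL2, was lower (-0.61 ± 0.18, edgeR adjusted p = 0.028), except without H3.3K4M or H3.3WT replicate 2. Of 24 silencing genes tested, 3 were lower and 0 higher: Dnmt3l, the cofactor of oocyte DNA methylation (25.8 and 18.4 against 36.98 and 49.3, -0.97 ± 0.21, edgeR adjusted p = 0.0050), Atrx and Resf1, against 8.69% higher and 13.8% lower of all genes tested. Atrx lost its call without H3.3WT replicate 1, and Resf1 in each fit without 1 library. Dicer1 was not called (-0.14 ± 0.16, edgeR adjusted p = 0.59). Of 5 granulosa markers tested, Cyp19a1, Fshr and Kitl were lower and Inha higher, with sums over all 12 of 5.59 and 3.27 CPM against 8.88 and 7.51. Of 3 markers of the 2-cell embryo tested, Zscan4c and Zscan4d were lower, with sums over the 6 found of 0.735 and 0.0883 CPM against 11.01 and 5.54. The part of either list in the result was not tested.

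**Figure D4:**
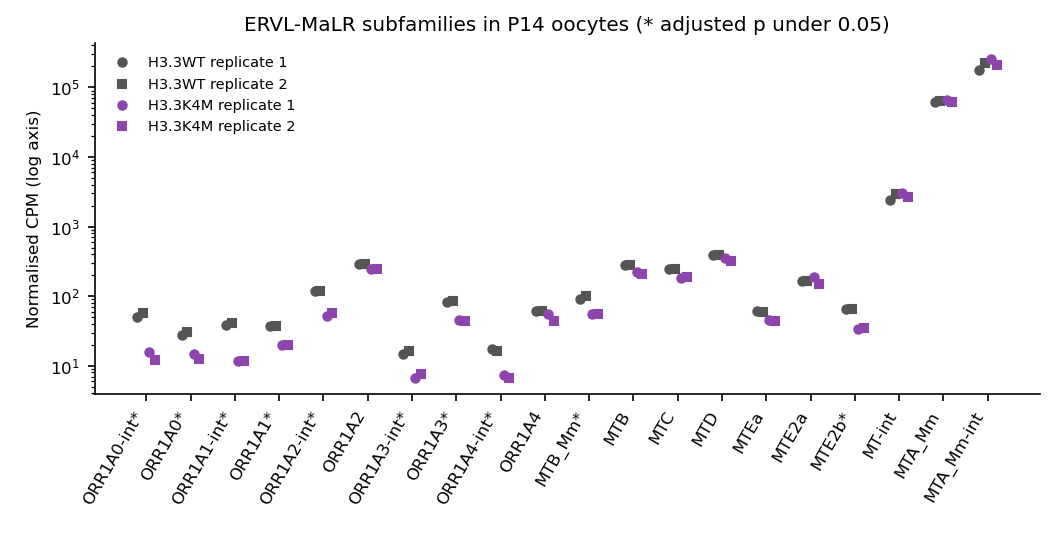
Normalised CPM (log axis) of MT and ORR1 subfamilies in the 2 H3.3K4M and 2 H3.3WT libraries of P14 oocytes, 1 point per library, with an asterisk on subfamilies called by edgeR. The H3.3K4M points of ORR1A0-int and ORR1A1-int lie well below the H3.3WT points, and those of MTA_Mm-int overlap them.

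At 2 cells, drugs were compared with 1 vehicle pair, so the comparisons share those 2 libraries and their values are set side by side. With cycloheximide, ORR1A members and MTA_Mm-int were lower than with DMSO. ORR1A0-int was at 35.7 and 40.3 normalised CPM with cycloheximide and 1234 and 374 with DMSO. ORR1A0 was at 25.2 and 37.8 against 434 and 284. ORR1A1-int was at 84.00 and 77.4 against 600.2 and 373. All 3 were several times lower in both treated libraries, and the vehicle libraries themselves differed by more than 3 times for ORR1A0-int. The log2 differences were -4.404 ± 0.59, edgeR adjusted p = 4.5e-04 for ORR1A0-int, -3.51 ± 0.50, edgeR adjusted p = 6.0e-04 for ORR1A0 and -2.59 ± 0.35, edgeR adjusted p = 4.6e-04 for ORR1A1-int. MTA_Mm-int was at 22794 and 17568 with cycloheximide and 51989 and 61036 with DMSO (-1.49 ± 0.35, edgeR adjusted p = 0.0100). That call was lost without cycloheximide replicate 2 or DMSO replicate 2. MTA_Mm did not pass, with 12283 and 8556 against 13067 and 15661 (-0.46 ± 0.34, edgeR adjusted p = 0.34).

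MTE2a was lower as well, at 129.6 and 134 against 286 and 314 (-1.19 ± 0.27, edgeR adjusted p = 0.0080). MTC, MTB_Mm and MTD were not called. MTC was at 1029 and 994 with cycloheximide and 633 and 791 with DMSO (0.51 ± 0.25, edgeR adjusted p = 0.16), so its treated libraries were the higher ones. MLT1H1, which had its highest mean of the untreated and vehicle groups in 8-week MII oocytes, was the only member called higher, at 383 and 315 against 121 and 121 (1.53 ± 0.31, edgeR adjusted p = 0.0048). Dicer1 was higher too (1837 and 1111 against 297 and 217, 2.52 ± 0.43, edgeR adjusted p = 0.0018), and Tbpl2 was lower (-1.35 ± 0.43, edgeR adjusted p = 0.039), a call lost without cycloheximide replicate 2 or either DMSO library. Of 24 silencing genes, 11 were higher, among them Dnmt1 (814 and 753 against 39.3 and 30.8, 4.48 ± 0.32, edgeR adjusted p = 4.1e-05), and 2 were lower, against 11.1% and 13.2% of all genes tested.

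Of 98 members tested, 43 were lower and 1 higher with cycloheximide, or 43.9% and 1.02%. That is close to the background of 42.1% lower and 1.08% higher among 1016 repeats. The median log2 difference was -1.04 over members, -1.42 over repeats and -0.33 over all entries. All 10 ORR1A members and all 4 ORR1B members were lower, with medians of -1.36 and -1.03, and 4 of 9 MTE members and 16 of 49 MLT1 members. Of the 44 called, 17 were called in every fit with 1 library left out. The number fell to 24 without cycloheximide replicate 1, to 26 without replicate 2 and to 21 without DMSO replicate 2. Drug and vehicle libraries of the same replicate number at 2 cells deviated together in the data, which the labels do not state. The calls above leave that number out of the fit. With the number as a block ORR1D1 passed as lower (edgeR adjusted p = 0.023 against 0.055 without it). The 6 markers of the 2-cell embryo found were all lower, with sums of 2.76 and 4.13 CPM against 738 and 992 CPM with DMSO, and their part in the result was not tested.

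With MG132 at 2 cells, ORR1A0 was lower by a like amount and MTA was not called. ORR1A0-int was at 47.2 and 58.9 and ORR1A0 at 26.7 and 38.6 normalised CPM, both far below the vehicle libraries. They differed from DMSO by -3.92 ± 0.58, edgeR adjusted p = 0.0018 for ORR1A0-int and -3.46 ± 0.50, edgeR adjusted p = 0.0017 for ORR1A0. MTA_Mm-int was at 30442 and 53673, a pair that straddles the lower vehicle library (-0.43 ± 0.35, edgeR adjusted p = 0.48). ORR1A1 was at 75.3 and 86.5 against 284 and 276 (-1.79 ± 0.36, edgeR adjusted p = 0.0094), a call that was lost without either MG132 library. Of 98 members tested, 21 were lower and 0 higher, or 21.4% lower, against 27.3% lower and 0% higher of 1016 repeats, and 6 of 10 ORR1A members were among them. DESeq2 called 46 lower and 0 higher, and 55 members had an unadjusted edgeR p under 0.05. Only ORR1A0-int, ORR1A0 and MLT-int kept their calls whichever library was left out. Without 1 MG132 library 3 members were called, and without 1 DMSO library 8. MTEa passed as lower with the replicate block (edgeR adjusted p = 0.044 against 0.061). DESeq2 size factors moved the median over all entries from -0.13 to -0.26, with 26 members and 320 repeats lower, against 277 repeats in the main fit. The 6 markers of the 2-cell embryo were all lower here too, with sums of 15.8 and 35.9 CPM, and their part was not tested.

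With aphidicolin at 2 cells, no member was called by edgeR, against 0% of 1016 repeats higher and 0.197% lower. Of 98 members tested, 11 had an unadjusted p under 0.05, and DESeq2 called 4, 1 higher and 3 lower. Without aphidicolin replicate 2 the number called by edgeR was 2, and without DMSO replicate 2 it was 1. MTA_Mm-int was at 89901 and 58222 with aphidicolin and 51989 and 61036 with DMSO, pairs that overlap (0.39 ± 0.35, edgeR adjusted p = 0.79). ORR1A0 was at 71.5 and 211 against 434 and 284, with both treated libraries lower and a wide gap between them (-1.34 ± 0.46, edgeR adjusted p = 0.33). Of the 6 markers of the 2-cell embryo, Usp17la and Zscan4d were called lower, both lost without aphidicolin replicate 1, with sums over all 6 of 46.6 and 141.6 CPM against 738 and 992. Their part was not tested.

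Set against 8-week MII oocytes, MTA_Mm-int was higher in the embryos of each drug. MII oocytes held 6129 and 5746 normalised CPM in this fit, against 81632 and 52396 with aphidicolin, 27208 and 48227 with MG132 and 19929.7 and 15655 with cycloheximide. The order from high to low was thus aphidicolin, MG132 and cycloheximide by mean, with the MG132 pair below the aphidicolin pair and above the cycloheximide pair. The log2 differences from MII oocytes were 3.497 ± 0.36, edgeR adjusted p = 3.6e-05 with aphidicolin, 2.67 ± 0.35, edgeR adjusted p = 3.2e-04 with MG132 and 1.58 ± 0.34, edgeR adjusted p = 0.0043 with cycloheximide. MTA_Mm was higher with aphidicolin (1.89 ± 0.34, edgeR adjusted p = 0.0015) and MG132 (1.44 ± 0.33, edgeR adjusted p = 0.0090, lost without MG132 replicate 2) and not called with cycloheximide (0.87 ± 0.33, edgeR adjusted p = 0.083). ORR1A1-int was lower with cycloheximide than in MII oocytes, at 73.4 and 69.00 against 201 and 253 (-1.67 ± 0.34, edgeR adjusted p = 0.0030). ORR1A3-int was lower with MG132, at 51.9 and 60.4 against 136 and 171 (-1.45 ± 0.30, edgeR adjusted p = 0.0050), a call lost without MG132 replicate 1.

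Of 99 members tested, 15 were higher and 3 lower with aphidicolin, against 12.7% and 3.42% of 1022 repeats. With cycloheximide 2 were higher and 10 lower, against 2.45% and 15.2%. The 2 higher were MTA_Mm-int and MT-int, the latter lost in each fit without 1 library. With MG132 4 were higher and 5 lower, against 1.96% and 10.4%. Those 4 were MTA_Mm-int, MTA_Mm, MT-int and MTB_Mm-int. These 3 comparisons share the 2 MII libraries. The number called with cycloheximide fell from 12 to 4 without MII replicate 2, and with MG132 from 9 to 5 without MII replicate 2 or MG132 replicate 2. With aphidicolin it fell from 18 to 10 without aphidicolin replicate 2 and to 11 without any other library.

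At 4 cells, ORR1A internal regions were lower and MTEa was higher with cycloheximide. ORR1A2-int was at 299 and 355 normalised CPM with cycloheximide and 1989 and 1897 with DMSO. ORR1A1-int was at 504 and 718 against 3019 and 3536. ORR1A4-int was at 112 and 109 against 632 and 605. In all 3 both treated libraries were lower by more than 3 times. The log2 differences were -2.57 ± 0.27, edgeR adjusted p = 7.3e-04 for ORR1A2-int, -2.42 ± 0.29, edgeR adjusted p = 0.0012 for ORR1A1-int and -2.49 ± 0.25, edgeR adjusted p = 6.2e-04 for ORR1A4-int. ORR1C1-int was lower still, at 6.13 and 7.12 against 45.4 and 75.1 (-3.18 ± 0.47, edgeR adjusted p = 0.0027). The LTRs differed less, with ORR1A1 at 469.8 and 512 against 1342 and 1556 (-1.56 ± 0.26, edgeR adjusted p = 0.0048) and ORR1A2 not called (-0.20 ± 0.21, edgeR adjusted p = 0.52). For every count on ORR1A2, ORR1A2-int had 0.368 and 0.385 counts with cycloheximide and 1.98 and 1.92 with DMSO.

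MTEa was at 587 and 552 with cycloheximide and 176 and 158 with DMSO, more than 3 times higher in each treated library (1.77 ± 0.23, edgeR adjusted p = 0.0016). MLT1H1 was at 71.4 and 75.1 against 15.1 and 15.6 (2.25 ± 0.35, edgeR adjusted p = 0.0035). MTA_Mm-int was at 3986 and 5813 against 4101 and 4869.7, pairs that overlap (0.13 ± 0.46, edgeR adjusted p = 0.87). The third member called higher was MLT1B-int, at 6.92 and 14.3 against 1.93 and 0.308 (3.24 ± 0.97, edgeR adjusted p = 0.049), which lost its call without either cycloheximide library or DMSO replicate 2. Of 98 members tested, 3 were higher and 9 lower, or 3.06% and 9.18%, against 3.09% and 4.59% of 1003 repeats, and 7 of the 9 lower were among the 10 ORR1A members. With library sizes from genes alone 2 members were higher and 12 lower. Of the repeats, 27 were then higher and 49 lower, against 31 and 46 in the main fit. The median was 0.13 over members, 0.24 over repeats and 0.41 over all entries. Trim28 was lower (52.5 and 68.3 against 156 and 139, -1.29 ± 0.25, edgeR adjusted p = 0.0085, lost without cycloheximide replicate 1), and of 24 silencing genes 2 were higher and 6 lower, against 8.64% and 10.2% of all genes tested. Mitochondrial transcripts took 17.3% and 15.8% of counts with cycloheximide and 12.1% and 9.07% with DMSO. Markers of the 2-cell embryo summed to 214 and 355 CPM with cycloheximide and 49.4 and 25.4 with DMSO, and granulosa and cumulus markers to 29.1 and 33.3 against 353 and 351. Gja1 carried that difference, at 0.953 and 2.16 normalised CPM against 391 and 364, and was the only one of 7 tested that was called. The part of these in the result was not tested.

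With MG132 at 4 cells, 3 members were higher and 1 lower of 98 tested, against 1.4% and 1.3% of 1003 repeats. None of the 4 was called when p was adjusted over repeats alone. MTA_Mm was at 6076 and 3323 against 1782 and 1992 (1.32 ± 0.32, edgeR adjusted p = 0.044). MTE-int was at 127 and 209 against 62.97 and 54.9 (1.51 ± 0.32, edgeR adjusted p = 0.027). MLT1H1 was at 58.7 and 34.7 against 15.1 and 15.6 (1.61 ± 0.34, edgeR adjusted p = 0.028). In these 3 both treated libraries were higher, with wide gaps between the replicates. ORR1C1-int was lower, at 15.04 and 15.5 against 45.4 and 75.1 (-1.98 ± 0.45, edgeR adjusted p = 0.034). MTA_Mm and MLT1H1 lost their calls without either DMSO library or MG132 replicate 1, and MTE-int without either DMSO library or MG132 replicate 2. ORR1C1-int lost its call without DMSO replicate 2 or either MG132 library. Fits without MG132 replicate 1, MG132 replicate 2, DMSO replicate 1 or DMSO replicate 2 called 1, 2, 1 and 0 members. ORR1A0 (0.57 ± 0.23, edgeR adjusted p = 0.17) and ORR1A1 (0.28 ± 0.26, edgeR adjusted p = 0.54) were not called. Of the 6 markers of the 2-cell embryo, 1 was higher, with sums of 119.7 and 131 CPM against 49.4 and 25.4. It was Usp17lc, whose call was lost in each fit without 1 library. Of 7 granulosa and cumulus markers tested only Gja1 was lower, with sums of 70.03 and 98.6 against 353 and 351. Their part in the result was not tested.

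With aphidicolin at 4 cells, no member was called by edgeR or DESeq2, against 0% higher and 0% lower of 1003 repeats. Of 98 members tested, 6 had an unadjusted edgeR p under 0.05. MTA_Mm-int was at 5771 and 18889.5 with aphidicolin and 4101 and 4869.7 with DMSO. Aphidicolin replicate 2 stood far above the other 3 libraries (1.46 ± 0.47, edgeR adjusted p = 0.56).

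**Figure D5:**
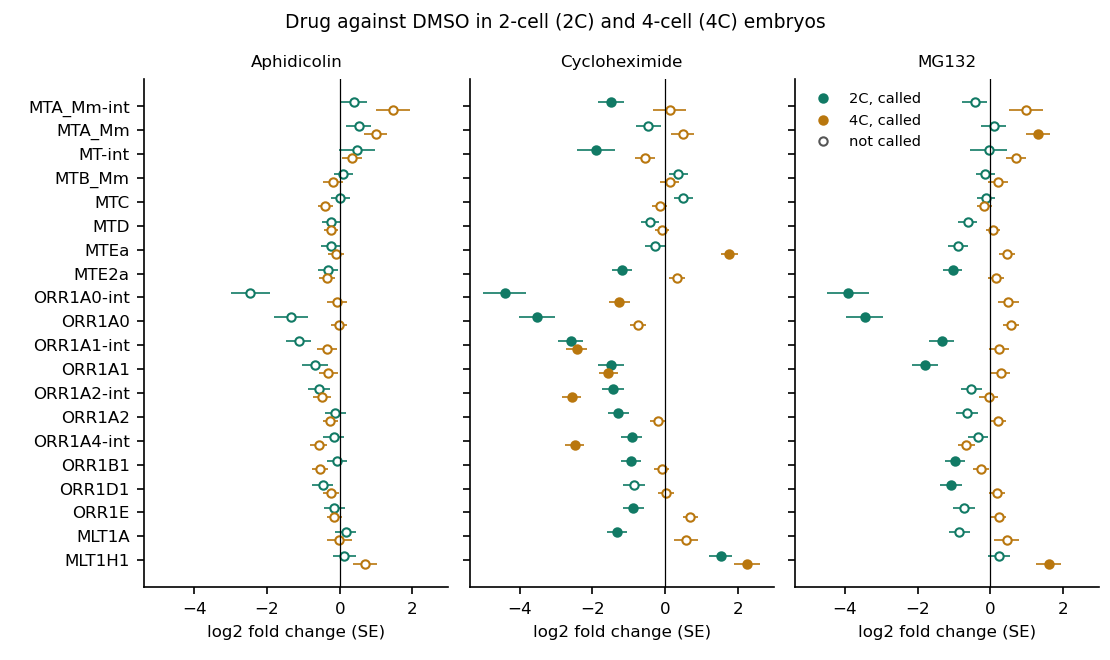
Log2 difference from DMSO with its standard error for MT, ORR1 and 2 MLT1 subfamilies at 2 cells (green) and 4 cells (orange), 1 panel per drug, with filled points for subfamilies called by edgeR. ORR1A0 and ORR1A0-int lie furthest below 0 at 2 cells with cycloheximide and MG132, and the aphidicolin panel holds no filled point.

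Whether a drug acted differently at 4 than at 2 cells was tested as the difference of the log2 differences. With cycloheximide, 22 members of 102 tested were higher in this difference and 2 lower, or 21.6% and 1.96%, against 29.8% and 1.04% of 1053 repeats. The median over all entries was 1.29, over repeats 1.77 and over members 1.14, so a value near 1 is near the general shift. The p-values measure departure from no difference, and departure from this shift was not tested. ORR1A0-int lay above the shift in value, with 3.19 ± 0.69, edgeR adjusted p = 0.0040. Its log2 difference from DMSO was -4.404 ± 0.59 at 2 cells and -1.26 ± 0.29 at 4 cells. ORR1A0 did so too (2.82 ± 0.60, edgeR adjusted p = 0.0036), as did ORR1D2-int (3.52 ± 0.63, edgeR adjusted p = 0.0011). MTEa differed by 2.11 ± 0.39, edgeR adjusted p = 0.0013. ORR1A1 showed no difference past the threshold (-0.02 ± 0.49, edgeR adjusted p = 1), and ORR1A4-int was lower in the difference (-1.52 ± 0.39, edgeR adjusted p = 0.012), a call lost without 2-cell DMSO replicate 2 or 4-cell cycloheximide replicate 2. MTA_Mm-int did not pass (1.67 ± 0.62, edgeR adjusted p = 0.065). Of the 24 called, 9 were called whichever library was left out. The number was 13 without DMSO replicate 2 of either stage and 15 without 4-cell cycloheximide replicate 1.

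With MG132, 14 members were higher in the difference and 0 lower, or 13.7%, against 20.7% and 0.285% of 1053 repeats. DESeq2 called 48 higher and 0 lower. The median over all entries was 0.49, over repeats 1.43 and over members 1.18, and departure from these was not tested. DESeq2 size factors moved the first to 0.63 and library sizes from genes alone to 0.70, with 23 and 25 members higher. Of the repeats, 257 and 271 were then higher, against 218 in the main fit. ORR1A0-int differed by 4.37 ± 0.70, edgeR adjusted p = 0.0011, ORR1A0 by 3.98 ± 0.61, edgeR adjusted p = 8.0e-04, MTE-int by 2.84 ± 0.46, edgeR adjusted p = 0.0011 and ORR1A1 by 2.04 ± 0.50, edgeR adjusted p = 0.013. The first 3 kept their calls in all 8 fits with 1 library left out, and ORR1A1 in 7, losing it without 2-cell MG132 replicate 1. Across the 14, 3 were called in every such fit, which called 4 to 9 members, with 4 without 2-cell MG132 replicate 1 and 5 without 2-cell DMSO replicate 2. With aphidicolin no member was called, against 0% and 0% of 1053 repeats. There library sizes from genes alone moved the median over all entries from 0.14 to 0.26, and 2 of 102 members had an unadjusted edgeR p under 0.05 and DESeq2 called 1.

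Age was compared in MII oocytes and, with vehicle and age changing together, at 2 cells. In MII oocytes no member was called by edgeR, against 0.241% higher and 0.843% lower of 830 repeats. Of 88 members tested, 15 had an unadjusted p under 0.05, and DESeq2 called 7, all lower at 12 months. Without 8-week replicate 1 the number called by edgeR was 7, and without replicate 2 it was 6. MTA_Mm-int was at 5932 and 5162 at 12 months and 4485 and 4354 at 8 weeks, with both older libraries higher (0.33 ± 0.26, edgeR adjusted p = 0.62). MTB_Mm was at 474 and 386 against 291 and 567, pairs that overlap (0.01 ± 0.37, edgeR adjusted p = 1). In 2-cell embryos of 12-month females without vehicle, MTA_Mm-int was at 112628 and 94482 against 51989 and 61036 with DMSO at 6 to 8 weeks. Both libraries lay above the vehicle pair, but the difference did not pass (0.87 ± 0.35, edgeR adjusted p = 0.30). Of 98 members 1 was lower and 0 higher, against 0.295% and 0.0984% of 1016 repeats. It was MLT-int, at 3.003 and 4.297 against 17.9 and 33.2 (-2.803 ± 0.55, edgeR adjusted p = 0.035), which lost its call without either 12-month library or DMSO replicate 2. DESeq2 called 2 lower and 0 higher, and adjustment over repeats alone left none.

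In AB2.2 ESCs the members were low and few passed the test with either drug. MTA_Mm-int was at 234 and 230.5 normalised CPM with cycloheximide, 298 and 269 with MG132 and 227 and 231 with DMSO. The cycloheximide pair overlapped the vehicle pair and the MG132 pair lay above it. Neither difference passed (0.02 ± 0.11, edgeR adjusted p = 0.91 with cycloheximide and 0.31 ± 0.11, edgeR adjusted p = 0.14 with MG132). With cycloheximide 2 of 88 members tested were higher and 0 lower, against 3.85% and 2.33% of 858 repeats. They were MLT1G and MLT1F2-int, both under 4 CPM, and neither kept its call when any 1 library was left out. With MG132 1 was higher and 0 lower, against 1.05% and 0.233%. It was ORR1A3-int, at 84.9 and 92.6 against 60.8 and 60.6 (0.55 ± 0.11, edgeR adjusted p = 0.041), and it lost the call without either DMSO library. Without 1 library the number called with MG132 ranged from 0 to 38, with 38 and 26 called without MG132 replicate 1 and replicate 2, and 0 called without either DMSO library. Unadjusted p-values under 0.05 were found for 11 members with cycloheximide and 26 with MG132, and DESeq2 called 1 and 2 higher and 0 lower in either. The markers of the 2-cell embryo summed to 52.99 and 53.2 CPM with cycloheximide, where all 6 were higher, to 18.4 and 20.6 with MG132, where 4 were higher, and to 7.26 and 5.91 with DMSO. The 4 with MG132 were Usp17la, Usp17lc, Zscan4c and Zscan4d, calls lost without either DMSO library. Shares of all genes called are not given for the ESC comparisons. Stroma and fibroblast markers (6 genes) summed to 544 and 540.5 CPM with cycloheximide, 579 and 524 with MG132 and 1037 and 1258 with DMSO. With MG132, Col1a1, Col1a2, Col3a1 and Dcn were lower of 5 tested, calls lost without either DMSO library, and with cycloheximide the 3 collagen genes were lower and Dcn higher, the last lost in each fit without 1 library. The part of either list in these results was not tested. Adjustment over repeats alone left no member called with either drug.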

How the data were processed

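RNA was sequenced from 32 libraries in 16 groups of 2. The authors deposited raw read counts for 55335 genes and 1153 repeat subfamilies, and per the submitters' processing notes reads were trimmed with cutadapt 1.16 and aligned with STAR to mm10. The counting tool, annotation, strand setting and handling of reads that map to several places were not found in the labels and bear directly on repeat counts. The quasi-likelihood test of edgeR 4.0.16 was used (R 4.3.3, TMM scaling, filterByExpr with a minimum count of 10 and a minimum total of 15). P-values had Benjamini-Hochberg adjustment over all genes and repeats, with a threshold of 0.05. For comparisons within a stage, the groups of that stage were fitted together. Comparisons between stages, and differences between drug effects, used fits over groups of several stages. Scaling, filter and dispersions were there shared across stages. DESeq2 1.42.0, other scalings, no filter, a replicate block and leaving out each library were alternatives. In every comparison 16 index subfamilies could be named, with up to 3 called subfamilies in each direction of largest change, at least 10 CPM and no overlap. For those called subfamilies, separate libraries were thus a condition of being named. ORR1A0-int, ORR1A1-int, ORR1A2-int, MTB-int, MTB_Mm-int and MTE2b were also named in some comparisons after their values were seen. The members and lists were chosen with earlier results of these data known. Same-numbered drug and vehicle libraries at 2 cells deviated together (r = 0.23 to 0.49 over 6354 genes, in 6 of 6 pairs of groups), which comes from the data and not from the labels. In ESCs r was 0.23 for cycloheximide with DMSO, and 0.098 and 0.060 for the other pairs. For 8-week MII oocytes it was 0.17 to 0.24 with the vehicle and drug groups at 2 cells, and -0.13 with embryos of 12-month females. Same-numbered libraries were treated as pairs only in the replicate block, so the main fits and their p-values leave the pairing out. No repeat sequence was used here.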

Additional observations from a re-analysis of the deposited data

Results flagged for a closer look

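The difference between the drug effects at 4 and at 2 cells passed the edgeR interaction test for 24 members with cycloheximide and 14 with MG132. With cycloheximide 21.6% of members tested were higher and 1.96% lower, against 29.8% and 1.04% of repeats. With MG132 13.7% were higher and 0% lower, against 20.7% and 0.285% of repeats. With cycloheximide the differences were 2.82 ± 0.60 for ORR1A0, 2.11 ± 0.39 for MTEa, 1.95 ± 0.47 for MLT1A, 1.62 ± 0.40 for ORR1E and 1.58 ± 0.38 for MTE2a, on the log2 scale with standard errors. The median was 1.29 over all entries and 1.77 over repeats, and ORR1E and MTE2a lay below the latter. With MG132 the differences were 3.98 ± 0.61 for ORR1A0, 2.04 ± 0.50 for ORR1A1 and 1.33 ± 0.39 for MTEa. Here the median was 0.49 over all entries and 1.43 over repeats, and MTEa lay below the latter. The call of MTEa with MG132 was lost without any 1 of the 8 libraries.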

How the results depend on the processing

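Counts of members called are given here for the settings that moved them by 1.5 times or more, and as ranges for all comparisons where 1 library was left out. Shares over all repeats are not set beside the counts in this section. The counts thus show how calls depend on settings, and do not set members against other repeats. With the DESeq2 test the counts were 7 for age in MII oocytes, 1 and 2 for cycloheximide and MG132 in ESCs, 4, 46 and 2 for aphidicolin, MG132 and age at 2 cells, and 22 for cycloheximide at 4 cells. From 8-week and 12-month MII oocytes to 2 cells they were 35 and 32, from MII to 2 cells with cycloheximide and MG132 they were 22 and 20, and for the differences between stages they were 1, 36 and 48 with aphidicolin, cycloheximide and MG132. DESeq2 called 6 members with MG132 at 4 cells. Adjustment over repeats alone gave 0 for both drugs in ESCs, 0 for age at 2 cells, 0 for MG132 at 4 cells and 24 for the MG132 difference. With no filter the counts were 7 for age in MII oocytes, 3 for MG132 in ESCs, 3 and 2 for aphidicolin at 2 and 4 cells, and 2 and 15 for the aphidicolin and cycloheximide differences. Library sizes from genes alone gave 36 from 8-week MII to 2 cells and 25 for the MG132 difference, and DESeq2 size factors 23 for the latter. Without 1 library the counts ranged from 17 to 32 for H3.3K4M, 0 to 7 for age in MII oocytes, 0 to 0 and 0 to 38 for cycloheximide and MG132 in ESCs, 0 to 2, 21 to 30, 3 to 8 and 0 to 1 for aphidicolin, cycloheximide, MG132 and age at 2 cells, and 0 to 1, 8 to 10 and 0 to 2 for the 3 drugs at 4 cells in that order. They ranged from 15 to 21 and 7 to 10 from MII to 2 cells at 8 weeks and 12 months, 33 to 44 from 2 to 4 cells, 23 to 53 from P14 to MII, 10 to 11, 4 to 10 and 5 to 8 from MII to 2 cells with aphidicolin, cycloheximide and MG132, and 0 to 1, 13 to 18 and 4 to 9 for the 3 differences between stages. The cause of these moves was not tested. Where 1 library was left out, the number of libraries and the library absent change together.

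Differences that changed sign when 1 library was left out were all of members not called. With age in MII oocytes the log2 values ranged from -0.40 to 0.55 for MTB_Mm and -0.48 to 0.082 for MTEa. In ESCs with cycloheximide the log2 values ranged from -0.031 to 0.36 for MLT1A, -0.086 to 0.28 for MTB_Mm, -0.012 to 0.30 for ORR1D1 and -0.12 to 0.22 for ORR1E. At 2 cells with aphidicolin the log2 values ranged from -0.41 to 0.17 for ORR1E. At 2 cells with MG132 the log2 values ranged from -1.29 to 0.65 for MT-int, -0.39 to 0.51 for MTA_Mm and -0.30 to 0.13 for MTB_Mm. At 2 cells with age the log2 values ranged from -0.033 to 0.54 for ORR1E. From 8-week MII to 2 cells the log2 values ranged from -0.34 to 0.13 for MTB, -0.34 to 0.0092 for MTC and -0.078 to 0.25 for MTD. From MII to 2 cells with MG132 the log2 values ranged from -0.47 to 0.048 for MTEa. In the difference between stages with aphidicolin the log2 values ranged from -0.080 to 1.63 for MTA_Mm-int. In that with MG132 the log2 values ranged from -0.027 to 2.11 for MT-int. Library sizes from genes alone gave 0.083 for MTB and 0.27 for MTD from 8-week MII to 2 cells. For MLT1A in ESCs the sign turned in 2 fits, with -0.031 and -0.026.

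The replicate block gave 20 members for H3.3K4M against 30, 0 for MG132 in ESCs and 2 for age at 2 cells. Numbers did not pair those libraries (r = -0.563 for P14). Crossing the numbers of the P14 libraries, chosen after seeing the data, called 45 members, 2 higher and 43 lower, and 0 in MII oocytes. At 2 cells, where same-numbered libraries deviated together, the block counts were 47 with cycloheximide and 26 with MG132. Among the members named, the block changed the calls of ORR1D1 and MTEa alone. With gene counts as the denominator, the mean ERVL-MaLR share was 43.6 per 100 in H3.3K4M and 39.9 in H3.3WT oocytes, 1.49 in 8-week MII oocytes, 11.3, 14.3 and 15.3 in 2-cell embryos with DMSO, with aphidicolin and of 12-month females, 2.81, 3.04 and 4.69 in 4-cell embryos with DMSO, cycloheximide and MG132, and 0.408 in ESCs with MG132. In a comparison 6 to 21 of 108 members had too few counts to pass the filter and were not tested. The part of depth in this was not tested.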
